A study of Caenorhabditis elegans with 2 samples.

Results

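Divergent protein-coding promoters carried 124 of the 5000 strongest intervals recovered with GFP-tagged NHR-111 from whole *Caenorhabditis elegans* larvae. A peak was placed here when protein-coding genes on both strands had an annotated start in reach of its summit, taken as up to 1000 bp before a start and up to 200 bp after it. Intervals were ranked by the deposited signal of both replicates pooled, and those with a summit within 250 bp of the start of a tRNA, snoRNA, snRNA, rRNA, miRNA or other short non-coding RNA gene were left out. Of the 5000, 918 lay in the promoter window of genes on one strand only, 3163 lay in no such window and 795 lay near a small RNA gene start. The 124 peaks marked 123 gene pairs, because cux-7/C07H6.2 held 2 summits, and 7 peaks had more than 2 starts in reach. In each pair the minus-strand start lay to the left of the plus-strand start, so transcription runs apart as the name says, and 113 of the 123 pairs were direct neighbours among protein-coding genes. The authors label the pooled list as peaks and background, so a peak here is a listed interval and not always a called one. Of the 124, 17 were in the authors' stricter thresholded list, described below, and 107 were not. The pooled signal chose the peaks, so its values describe them and no test was made on them.

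The series was a single group of 2 biological replicates, with no condition to compare. The animals were strain OP569, which is unc-119(tm4063) mutant and carries the integrated array wgIs569, made of nhr-111 with a C-terminal TY1::EGFP::3xFLAG tag together with an unc-119(+) rescue. They were mixed-sex L4 larvae aged 48 h, taken from cultures that had been bleached and held as starved L1 larvae, and sonicated chromatin was recovered with an antibody to GFP. The fusion was made from a transgene and whole animals were used, so the tissue in which a peak arose cannot be told. No precipitation of another protein was analysed here, so sites recovered whatever protein is tagged cannot be told apart from sites of NHR-111. Neither nhr-111 nor unc-119, the genes carried by the array, had a divergent promoter peak within 50000 bp.

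Divergent promoters are stretches of DNA from which neighbouring genes are transcribed away from each other. They are common in compact genomes, where the same open chromatin can hold the start regions of both genes. NHR-111 belongs to the nuclear hormone receptors, zinc-finger transcription factors that form a greatly expanded family in nematodes. Many worm messages receive a spliced leader that replaces their first bases, so an annotated start often marks the splice site and initiation lies upstream of it.

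The sequence beneath 6 of the 10 strongest peaks is given first, and each of these 6 holds a word marked below. Each window is the summit base with 50 bp on either side, and lies in the gap between the paired genes. Gene pairs are named with the gene on the minus strand first. The sequences are the plus strand of assembly ce11 (RefSeq WBcel235). Capitals mark CATACACT (tasp-1, rpl-15, rpl-20) and CGCTCCAC (tasp-1, rpl-15), GCCGCAC (hsp-60, atx-2), each on either strand, and the alternating heat shock units of F44E5.4/F44E5.5. These words were chosen after the sequences had been seen, and most of the 124 windows held none of them. Among the 10 strongest peaks, the windows at cct-8/Y55F3AR.2, larp-1/wip-1 and icl-1/srh-2, not printed here, held none.
K01G5.10/tasp-1, chrIII:10759186-10759286: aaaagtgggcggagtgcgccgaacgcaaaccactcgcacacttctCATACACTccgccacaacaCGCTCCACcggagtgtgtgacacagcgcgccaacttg
rpl-15/K11H12.8, chrIV:654876-654976: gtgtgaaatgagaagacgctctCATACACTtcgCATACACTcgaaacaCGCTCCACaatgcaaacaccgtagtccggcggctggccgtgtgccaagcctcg
rpl-20/Y17G9B.5, chrIV:4750005-4750105: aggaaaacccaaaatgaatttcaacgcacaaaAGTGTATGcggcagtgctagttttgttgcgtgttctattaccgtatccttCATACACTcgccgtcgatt
F44E5.4/F44E5.5, chrII:11759409-11759509: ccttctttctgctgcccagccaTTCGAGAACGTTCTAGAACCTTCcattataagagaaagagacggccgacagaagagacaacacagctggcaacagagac
Y22D7AL.10/hsp-60, chrIII:1619063-1619163: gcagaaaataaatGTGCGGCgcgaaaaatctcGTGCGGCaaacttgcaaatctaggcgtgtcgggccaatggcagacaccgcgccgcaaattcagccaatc
ecps-1/atx-2, chrIII:10461259-10461359: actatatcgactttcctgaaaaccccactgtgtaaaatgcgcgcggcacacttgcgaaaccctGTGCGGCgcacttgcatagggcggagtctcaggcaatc

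The heat shock units, which are TTC and its complement GAA in turn with any 2 bases between them, are the letters bound by heat shock factor in many animals. The pair F44E5.4/F44E5.5, which encodes Hsp70 proteins on both strands, held a run of 5 such units in its window. A run of 3 or more was present in 1 of the 124 windows (0.807%) and in 0.545% of one-sided promoter peaks. It was in 0.601% of all protein-coding promoters and in 0.781% of windows at the midpoints of 2560 neighbouring divergent pairs. The word CATACACT was in 3 of the 124 windows, all of them among the 6 strongest, and rpl-15 and rpl-20 each held it 2 times. It was in 2.42% of divergent promoter peaks, 0.109% of one-sided peaks, 0.180% of all promoters and 0.195% of pair midpoints. The word CGCTCCAC was in 6 windows (4.84%), against 0.872% of one-sided peaks, 0.290% of all promoters and 0.703% of pair midpoints. GCCGCAC was in 9 (7.26%), against 1.85%, 0.601% and 0.898% in the same order. CGCTCCAC was also found at prp-19/K10D2.5, rpl-12/lin-54, rps-15/F36A2.9 and efl-1/fbxa-90. GCCGCAC was present 2 times at hsp-60 and at spe-48/Y51F10.11, and once at ecps-1/atx-2, ears-2/uncp-18, drr-2/set-16, rpl-7A/set-21, hxk-2/cdk-9, erfa-3/math-33 and pvf-1/Y39A3CL.7. A match is a description of the letters and not a binding site. Since the words were picked from these windows, their higher shares here cannot be told apart from the effect of that choice.

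A further 7 words, not taken from these windows, gave a mixed picture. AGGTCA, the core word recognised by many nuclear receptors, was in 1 of 124 windows (0.807%), beside 2.07% of one-sided promoter peaks and 2.84% of all promoters. TGATAA, the site of GATA factors such as those of the worm intestine, was in 4 windows (3.23%), beside 6.54% and 11.8%. The run TTTTTTTT was in 6 windows (4.84%), beside 4.68% and 13.4%. The E-box CACGTG was in 5 (4.03%), beside 2.94% and 1.79%. GAGAG was in 35 (28.2%), beside 26.6% and 16.0%. CTGCGTC was in 5 (4.03%), beside 3.27% and 1.78%. The Sp1-type word CCCGCCC was in 3 (2.42%), beside 1.31% and 0.701%. The first 3 of these words were thus in a smaller share of the windows than of all promoters, and the last 4 in a larger share. All words were searched on both strands and none is contained in another. Promoter windows were of the same length and centred 150 bp upstream of the start.

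Base composition moved with these shares, and its part in them was not tested. The median GC content of the window was 46.5% at divergent promoter peaks (middle range, from the lower to the upper quartile, 41.3% to 52.5%). It was 44.6% at one-sided peaks (37.6% to 50.5%). It was 33.7% at all promoters (27.7% to 39.6%) and also 33.7% at the midpoints of all divergent pairs. A window held a mean of 6.30 CG dinucleotides at divergent peaks, 5.03 at one-sided peaks, 3.07 at all promoters and 3.42 at the midpoints of pairs. The raised GC content was narrow. In windows of 51 bp its mean was 47.8% at the divergent summits, and it had dropped to 38.3% on one side and 37.5% on the other at a distance of 100 bp. At one-sided summits the mean was 45.1%, and 100 bp away it was 40.5% and 40.3%.

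**Figure D1:**
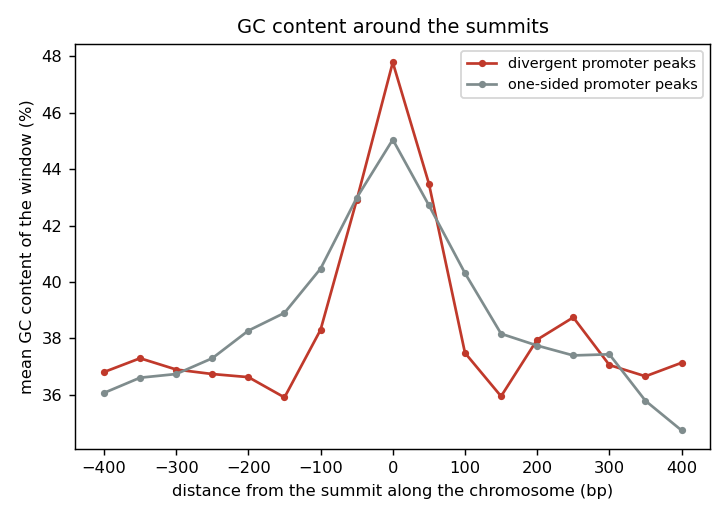
Mean GC content (%) of 51 bp windows against distance along the chromosome from the summit (bp), for the 124 divergent promoter peaks (red) and the 918 one-sided promoter peaks (grey). The divergent curve reaches 47.8% at the summit and is 38.3% and 37.5% at 100 bp to either side, where the one-sided curve is 40.5% and 40.3%.

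Strength was described in the deposited signal units, of unstated scale. Pooled signal at the 124 peaks ran from 59.4 to 256, with a median of 71.4. One-sided promoter peaks had a median of 69.6 and reached 410. By rank, 32 of the divergent peaks were among the first 1000 intervals, and 27, 21, 19 and 25 fell in the next blocks of 1000. One-sided peaks were spread more evenly, with 183, 179, 199, 180 and 177 in the same blocks. Of the 501 peaks in the authors' list thresholded by the irreproducible discovery rate, which scores how well ranks repeat between replicates, 17 were at divergent promoters. They made up 13.7% of the divergent peaks. The share was 9.37% of one-sided peaks, 4.46% of peaks in no window and 32.3% of peaks near small RNA starts, with 501 of the 5000 intervals in all. The thresholded list was drawn from the same replicates and pooled intervals.

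The strongest peak lay between K01G5.10, annotated as a dehalogenase-like hydrolase, and tasp-1, a homolog of the protease taspase (chrIII:10759188-10759311). Replicate 1 gave a signal of 122 and replicate 2 one of 138, or 130 ± 11.4 (mean ± SD, n = 2, as for each such value here). The summit was 71 bp upstream of tasp-1 and 714 bp upstream of K01G5.10, so it sat at the tasp-1 end of a 785 bp gap.

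Heat shock proteins and chaperonins supplied 3 of the 5 strongest peaks. The Hsp70 pair F44E5.4/F44E5.5 (chrII:11759351-11759584) had 113 and 144 in replicates 1 and 2 (128 ± 22.1). Its genes were 351 bp apart and the summit lay 148 bp from one start and 203 bp from the other. These genes are close copies: 97.9% of the 31-base words of F44E5.5 also occur in F44E5.4, although no 31-base word of the printed window occurs elsewhere in the genome. The hsp-60 pair joins genes whose products work together, since hsp-60 encodes the mitochondrial chaperonin and Y22D7AL.10 is annotated as its mitochondrial heat shock partner (chrIII:1618911-1619314). Its signal was 81.0 and 102 (91.7 ± 15.2), and the summit was 184 bp upstream of Y22D7AL.10 and 629 bp upstream of hsp-60. The third, at cct-8/Y55F3AR.2 (chrIV:1094186-1094589), was shared by a subunit of the cytosolic chaperonin CCT and a thioredoxin-domain gene. It had 69.6 and 113 (91.4 ± 30.7), with the summit 153 bp upstream of Y55F3AR.2 and 468 bp upstream of cct-8. A non-coding RNA gene started 301 bp from that summit, just beyond the exclusion distance. The list of chaperones was chosen by symbol and so held neither the F44E5 genes nor Y22D7AL.10. In it 4 of 66 genes had a peak (6.06%), where 252 of all 19973 protein-coding genes (1.26%) had one. They were hsp-60, cct-8, dnj-28 (pooled signal 77.6) and cct-1 (62.7). Among genes whose window overlaps that of a gene on the other strand, so that they could have had one, the counts were 4 of 35 (11.4%) and 252 of 5656 (4.46%).

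Cytosolic ribosomal protein genes were the largest listed group by number. A divergent peak lay in the window of 10 of 80 of them (12.5%), or of 10 of the 52 with an overlapping window (19.2%), beside 1.26% and 4.46% over all genes. No test was made of this difference. The list of replicate 2 alone gave 9 ribosomal genes and that of replicate 1 alone gave 8. The highest was rpl-15/K11H12.8 (chrIV:654868-655020), at 81.4 and 147 (114 ± 46.6), where replicate 2 was well above replicate 1. A snoRNA gene started 565 bp away. Next were rpl-20/Y17G9B.5 (chrIV:4750006-4750114), at 83.9 and 104 (93.8 ± 13.9), and rps-19/hsr-9, at 45.6 and 79.7 (62.6 ± 24.1). The partners were unlike each other: K11H12.8 is annotated as a transmembrane protein, Y17G9B.5 as a mitochondrial signalling intermediate, and hsr-9 is related to the DNA repair factor 53BP1.

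The ribosomal summits were not placed at the ribosomal start as a rule. The ribosomal gene was the nearer of the pair in 5 of 10 cases. At rpl-15, rpl-20, rps-19 and rps-20 the summit was 350, 277, 282 and 280 bp upstream of the ribosomal start, and at rpl-12 and rpl-7A it was 23 and 79 bp upstream. At rpl-43 it was 764 bp upstream, and at rps-6 it lay 178 bp inside the gene. Replicate agreement also varied: rps-23 gave 45.9 and 50.1 and rpl-7A 36.4 and 36.3, whereas rpl-12 gave 24.0 and 70.9. Pooled signal over these genes ran from 59.96 at rps-6 to 230 at rpl-15. By comparison, 1 of 70 mitochondrial ribosomal protein genes (1.43%) had a peak, at mrpl-40.

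The remaining peaks among the 15 strongest joined genes of many kinds. At larp-1/wip-1 (chrIII:5018112-5018515) the values were 66.1 and 104 (85.0 ± 26.7). The gene larp-1 encodes a La-related RNA-binding protein and wip-1 an actin-regulating WASP-interacting protein. The peak at icl-1/srh-2 (chrV:727616-728019), at 41.8 and 80.3 (61.1 ± 27.2), had its summit inside a coding exon, 186 bp downstream of the icl-1 start. The gene icl-1 encodes an enzyme of the glyoxylate cycle, and srh-2 a chemoreceptor of the serpentine class. A non-coding RNA gene started 413 bp away. Between ecps-1, a gene with an Ecm29-type proteasome domain, and atx-2, the worm ataxin-2 (chrIII:10461107-10461510), replicate 1 gave 67.3 and replicate 2 gave 60.8 (64.0 ± 4.56).

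Below these, several summits were very close to a start. At clsp-1/eef-2, which pairs claspin, a replication checkpoint protein, with translation elongation factor 2, the summit was 5 bp into the 5' UTR of eef-2, and the replicates gave 65.7 and 56.6 (61.1 ± 6.42). At F25H9.6/F25H9.7 the starts were only 15 bp apart, the smallest gap of all, and the summit lay within it (55.1 and 64.9). At ift-43/mdt-26, which pairs an intraflagellar transport gene with a Mediator gene, it was 30 bp upstream of mdt-26 (49.1 and 60.6). The pair spe-48/Y51F10.11 had 55.7 and 79.6 across a 180 bp gap, and rps-20/ekl-4, where ekl-4 is annotated as a homolog of a DNA methyltransferase-associated protein, had 51.5 and 56.7. The last 2 thresholded peaks, W08A12.2/unc-132 (46.0 and 30.8) and lron-10/hpr-9 (40.7 and 66.6), differed in which replicate was higher.

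Summits mostly lay between the paired starts. They were between both starts at 92 of 124 peaks (74.2%), inside the plus-strand gene at 19 and inside the minus-strand gene at 13. Some of the 92 summits between the starts were still inside another protein-coding gene. Examples are coding exons at B0464.6/baf-1, skr-18/ech-5 and jmjd-4/ced-9 and an intron at nep-26/mdt-22. A summit downstream of its nearest start was about as frequent at one-sided promoter peaks (26.3%, against 25.8%). By annotation, 77 divergent summits were outside any protein-coding gene (62.1%, against 46.5% of one-sided summits), 29 were in a coding exon (23.4%, against 32.7%), 11 in an intron, 6 in a 5' UTR and 1 in a 3' UTR. The gene content of each class of window was not measured, so these differences cannot be told apart from how the classes are defined.

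Over all 124 peaks the plus-strand start was nearer at 62 and the minus-strand start at 62, and over the 92 summits between the starts the counts were 43 and 49. The median distance to the nearer start was 155 bp (middle range 86.8 to 231 bp), with 36 summits (29.0%) within 100 bp. At one-sided peaks the median was 256.5 bp, and 23.1% were within 100 bp. A gene pair offers a choice of starts, which shortens the nearer distance by construction. Of the 92 summits between the starts, 29 (31.5%) were from 40% to 60% of the way across the gap. Another 27 were in the 20% next to either start, with both ends counted together, which is a wider stretch than the middle one. A summit had to be within 1000 bp of both starts, so at the 25 peaks with gaps over 1000 bp the rule itself keeps summits towards the middle. The 17 thresholded peaks lay between the starts in 14 cases, at a median of 148 bp from the nearer start. For the other 107 the numbers were 78 and 157 bp.

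**Figure D2:**
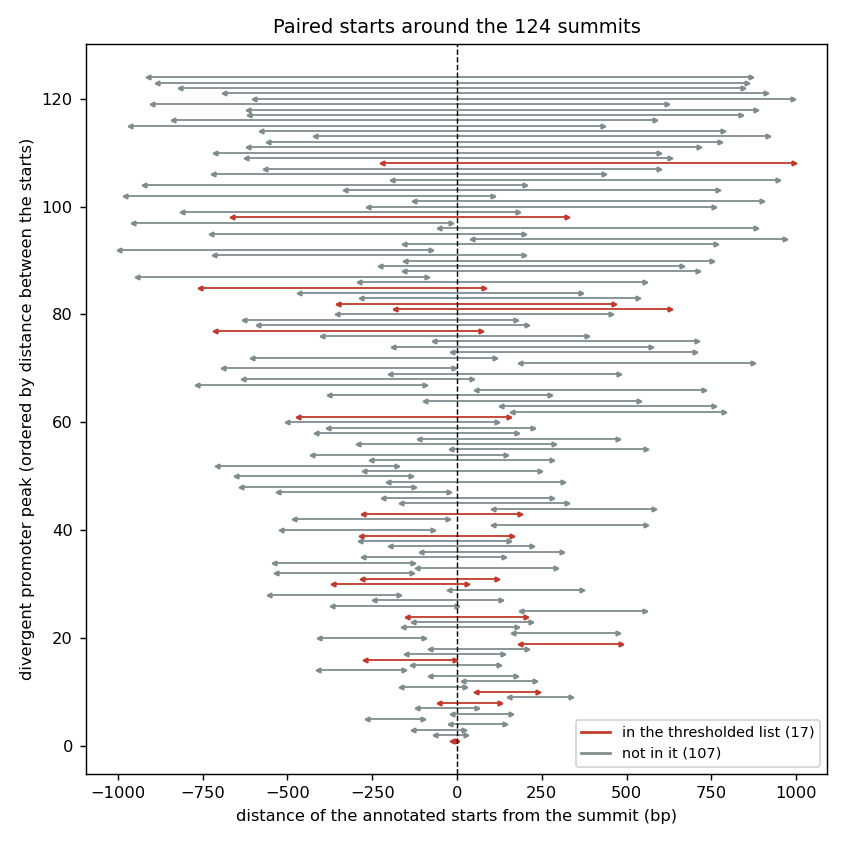
Position of the paired annotated starts (left and right arrowheads for the minus-strand and plus-strand genes, in bp) around each of the 124 summits, placed at 0 and ordered by the distance between the starts. The dashed line falls between the arrowheads for 92 peaks, and 14 of the 17 thresholded peaks (red) are among them.

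The distance between paired starts ranged from 15 to 1780 bp, with a median of 626 bp. It was at most 200 bp at 11 peaks and over 1000 bp at 25. Over the genome, 2560 neighbouring protein-coding pairs were transcribed away from each other with starts at most 2000 bp apart, and 113 of them (4.41%) held one of the peaks. The share was 11 of 373 pairs (2.95%) at gaps up to 250 bp, 34 of 544 (6.25%) at 251 to 500 bp, 27 of 477 (5.66%) at 501 to 750 bp and 25 of 351 (7.12%) at 751 to 1000 bp. It was 3.30%, 2.31% and 0.613% in the next classes up to 1250, 1500 and 2000 bp. A wider gap gives a summit more bases to fall in, while a gap near 2000 bp leaves little overlap of the windows, so the shares at both ends are shaped by the rule.

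**Figure D3:**
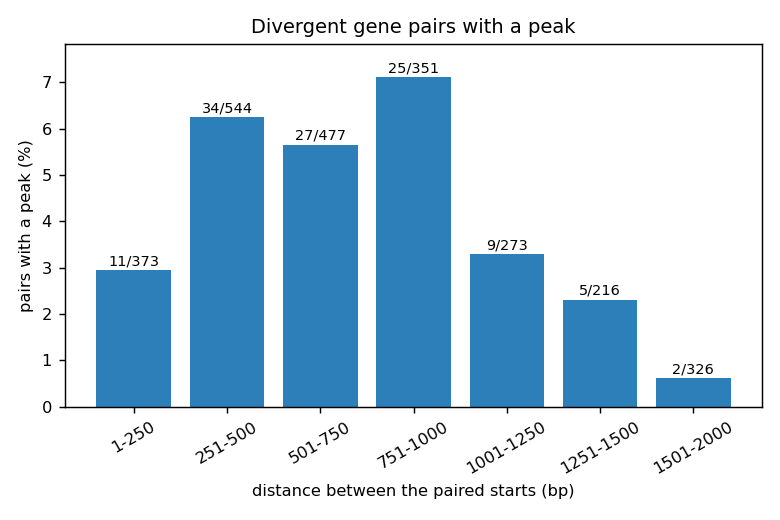
Percent of neighbouring divergent protein-coding pairs that held a peak, in classes of the distance between their starts (bp), with the pairs with a peak and all pairs of the class above each bar. The share lies between 5.66% and 7.12% for gaps of 251 to 1000 bp and is 2.95% below and 0.613% in the widest class.

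Set against the length of sequence that could hold a summit, divergent windows covered 1.99 Mb (1.98% of the genome) and had 62.4 peaks per Mb. One-sided windows covered 18.7 Mb with 49.2 per Mb, and sequence in no window had 41.7 per Mb. The whole nuclear genome had 49.9 per Mb. For the thresholded list the values were 8.55, 4.61, 1.86 and 5.00 per Mb in the same order. Regions near small RNA starts had 214 peaks per Mb and 69.3 thresholded peaks per Mb, above the other classes. Of the 124 divergent peaks, 15 had a small RNA start beyond 250 bp but within 1000 bp.

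Both replicates listed most of the peaks, but their ranking differed. A summit within 200 bp was present in the full list of 30000 intervals of replicate 1 for 115 peaks and of replicate 2 for 117. It was present in both for 108 (87.1%), against 90.6% of one-sided peaks. Within 50 bp the share was 50.8%. The exact 95% binomial interval of the 87.1% was 79.9% to 92.4%, which covers counting error only and treats the peaks as independent draws. They are the whole set picked by the rule from these same replicates, so the interval gives no spread between replicates. In the 5000 strongest of its own list, replicate 1 placed 66 of the peaks and replicate 2 placed 74. Only 36 (29.0%) were in both, beside 28.9% of one-sided peaks, and 20 were in neither.

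Signal in replicate 1 ranged from 17.6 to 122 with a median of 34.1, and in replicate 2 from 19.4 to 147 with a median of 40.8. Replicate 2 was the higher at 72 of the 108 matched peaks, with a median ratio of 1.16 (1.12 at one-sided peaks). The ratio ran from 0.372 to 2.95, and the median SD was 19.96% of the mean. Over these 108 peaks the Spearman correlation was 0.183 and Pearson's r of log2 signal was 0.463. The values were 0.657 and 0.725 over the 17 thresholded peaks and -0.237 and -0.270 over the other 91. These correlations are descriptions: the peaks share 2 libraries and a control, all were selected on the signal of both, and the thresholded list is itself drawn up by agreement between replicates. Nothing is read from the difference between the subsets.

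**Figure D4:**
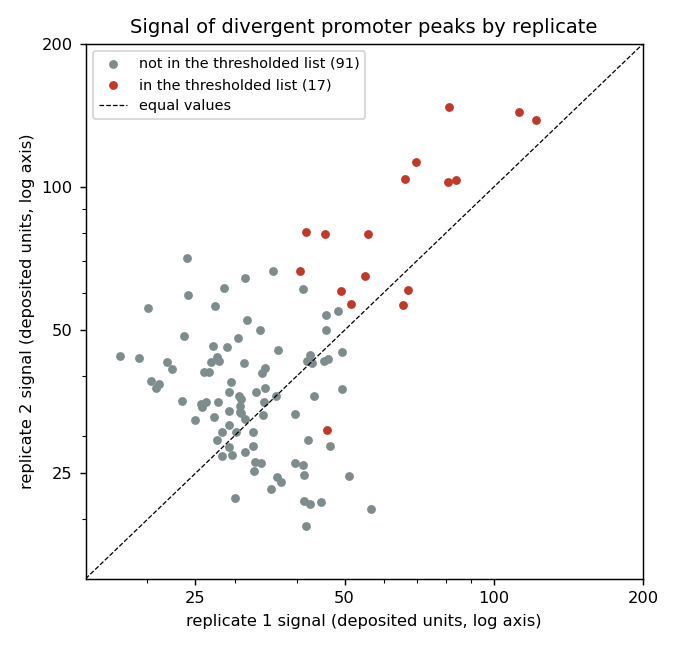
Deposited signal of the 108 divergent promoter peaks matched in both lists, replicate 1 against replicate 2 on log axes, with the 17 thresholded peaks in red. Replicate 2 is above the dashed line of equal values for 14 of the thresholded peaks and 58 of the other 91.

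Single genes in the middle of the ranking depended on the replicate. Among the 100 strongest peaks, the largest excess of replicate 2 was at rpl-12/lin-54, with 24.0 (rank 14033) and 70.9 (rank 254). It was followed by aka-1/ubc-6 (20.02 and 55.8), kgb-1/T07A9.12 (17.6 and 44.1) and skr-18/ech-5 (24.1 and 59.4). The opposite held most at apb-1/mdt-19, with 56.6 (rank 345) and 21.0 (rank 24107), then nmad-1/hach-1 (41.9 and 19.4), tba-1/cox-5B (51.0 and 24.6) and F56C9.6/F56C9.3 (44.8 and 21.8). Of the 16 peaks not matched in both, 9 had no summit in replicate 1 and 7 had none in replicate 2. The strongest of the 9 was the first summit at cux-7/C07H6.2, at 75.3 in replicate 2. Of the 7, the highest pooled signal was at H12C20.7/nhr-68, at 55.9 in replicate 1.

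Genes of transcription and chromatin had peaks in several pairs. Mediator, the coactivator that links transcription factors to RNA polymerase II, had 3 of 23 listed genes (13.0%; 3 of the 8 with an overlapping window), namely mdt-26, mdt-22 (34.1 and 40.5) and mdt-19. The shorter window, 500 bp upstream to 100 bp downstream, gave 1. Chromatin regulators had 6 of 92 (6.52%; 6 of 27 with an overlapping window), against the 1.26% of all protein-coding genes. The list of either replicate alone gave 4 genes of this class and the 2500 strongest intervals gave 3. The 6 genes were lin-54, a DNA-binding member of the DRM complex (the worm DREAM complex), set-16 (46.4 and 43.5), set-21 (36.4 and 36.3), the SWI/SNF ATPase gene swsn-4 (41.3 and 26.0), lin-35, the worm retinoblastoma gene (30.7 and 34.6), and jmjd-4 (20.9 and 37.8). In all 6 the other gene of the pair had the nearer start. Those nearer partners were rpl-12, drr-2, rpl-7A, spo-11, vps-51 and ced-9. Histone genes had 6 of 72 (8.33%; 9.09% of those with an overlapping window) at 4 peaks, of which his-67/his-68 was the highest (35.9 and 66.5). Histone genes are near-identical copies in several clusters, so their own sequence could place reads uncertainly. In the summit window, 100% of the 31-base words at his-63/his-64 and 15.5% at mdf-1/his-41 occur more than once in the genome. None do at his-67/his-68 or his-35/C50F4.6. In the list of RNA polymerase subunits and general factors only taf-4 of the 52 listed genes had a peak.

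Other housekeeping lists were represented by small counts, given here as a share of all listed genes and then of those with an overlapping window, for which the shares over all protein-coding genes were 1.26% and 4.46%. Translation factors had 4 of 43 (9.30%, or 16.0%): eef-2, iff-2, which encodes eIF5A (43.0 and 42.6), iff-1 and erfa-3. Aminoacyl-tRNA synthetases had 2 of 32 (6.25%, or 13.3%), ears-2 (45.9 and 53.9) and dars-1. The ubiquitin pathway had 4 of 69 (5.80%, or 12.9%), led by ubc-6, skr-18 and usp-3. The vacuolar ATPase, a proton pump, had 2 of 21 (9.52%, or 22.2%), vha-8 and vha-3. Vesicle traffic genes had 5 of 131 (3.82%, or 7.94%), led by rab-14, apb-1 and syx-5 (31.5 and 32.5). Other shares were nearer to those of all genes with an overlapping window. Splicing factors had 2 of 56 (3.57%, or 6.06%), prp-19 (48.4 and 54.8) and uaf-2 (45.4 and 43.1). The respiratory chain and ATP synthase had 2 of 52 (3.85%, or 6.45%), cox-5B and atp-1 (39.7 and 33.2). The list named cell cycle and DNA replication had 3 of 85 (3.53%, or 6.25%). They were the spindle checkpoint gene mdf-1, the replication factor psf-1 and cdk-9, which is counted here only as a member of that list. The proteasome had 1 of 33 (3.03%, or 4.17%), pbs-1, which had no summit in replicate 2.

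Tissue and environmental gene families differed among themselves. Homeobox (87 genes), collagen (181), neuropeptide (140), xenobiotic enzyme (223) and body wall muscle (47) genes had none under a divergent peak. Few homeobox, muscle and neuropeptide genes could have had one, since 11, 6 and 17 of them have an overlapping window, against 44 collagen and 62 xenobiotic genes. Chemoreceptors had 4 of 1310 (0.305%, or 1.35% of the 297 with an overlapping window), below the 1.26% and 4.46% of all genes: srh-2, str-13, str-33 and srh-237. F-box genes had 5 of 322 (1.55%, or 4.72%), close to all genes, led by fbxb-107, fbxb-85 and the pair fbxa-56/fbxa-22. C-type lectins had 5 of 240 (2.08%, or 6.17%), among them the pair clec-62/clec-63 (28.6 and 61.4) and clec-221. Intestinal genes had 2 of 112 (1.79%, or 6.25%), acdh-13 and asp-18. Nuclear pore genes had 1 of 43 (2.33%, or 3.70%) and germ-line genes 1 of 98 (1.02%, or 2.27%).

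The receptor family to which NHR-111 belongs had 2 of its 273 listed genes under a divergent peak (0.733%; 2 of 46 with an overlapping window, or 4.35%, beside 4.46% over all such genes). At nhr-142 the summit was 198 bp upstream of the start, and the replicates gave 31.8 and 52.5. At nhr-68 it was 70 bp inside the gene, and replicate 2 had no matching summit. Over all 28 lists, 61 of the 124 peaks had neither nearest gene in any list, 50 had 1 and 13 had both.

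**Figure D5:**
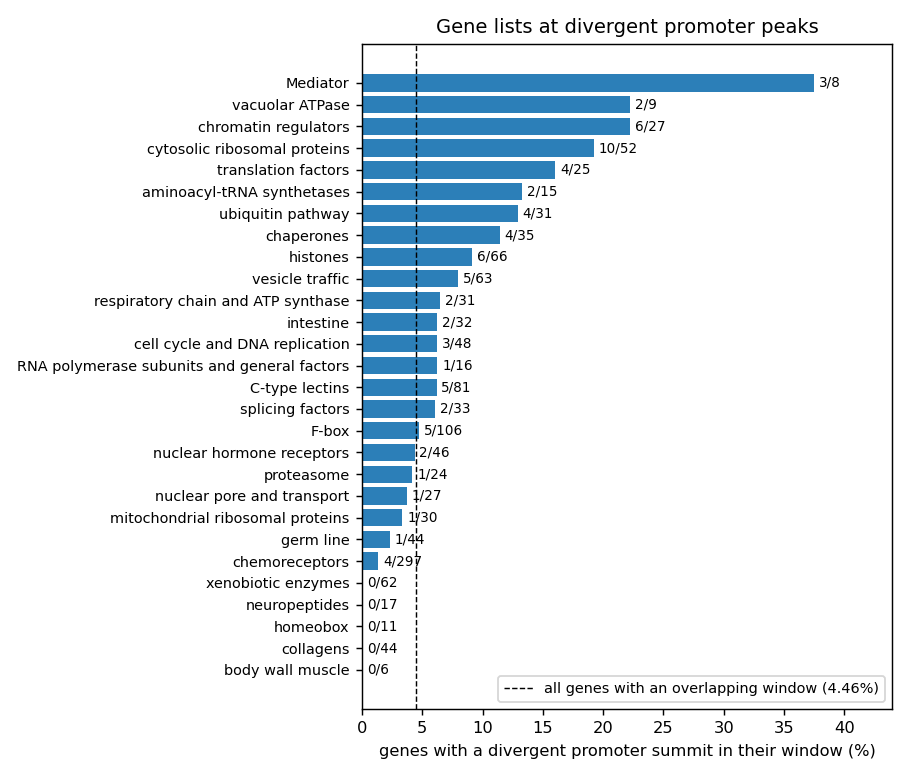
Percent of the genes with an overlapping promoter window on the other strand that had a divergent promoter summit, for each of 28 gene lists, with counts beside the bars and the share over all such genes (4.46%) as a dashed line. Cytosolic ribosomal proteins reach 10 of 52 and chromatin regulators 6 of 27, while several bars rest on 1 to 4 genes and were not tested.

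The peaks were unevenly spread over the chromosomes. The X chromosome carried 1 of 124 (0.806%), at rab-14/nipi-3, with signal of 42.0 and 43.0, where rab-14 encodes a small GTPase of membrane traffic. Of the one-sided promoter peaks 102 were on X (11.1%), of those in no window 13.8%, and of those near small RNA starts 30.7%. X holds 13.7% of protein-coding genes but 6.95% of the divergent pairs. By pairs, 1 of 178 on X (0.562%) and 112 of 2382 on the autosomes (4.70%) held a peak. The small number on X moved with the rule, to 4 among the 10000 strongest intervals, 6 with the window extended to 1500 bp upstream, 5 with peaks at small RNA starts kept and 0 with the shorter window. Among the autosomes the share of pairs was highest on III (26 of 385, or 6.75%) and lowest on II (15 of 466, or 3.22%).

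The limits of the selection passed through a continuous range. Just inside the 5000 strongest were rbm-3.1/ubc-12, at a pooled signal of 59.5, and his-63/his-64, at 59.4. Just outside were ZC334.13/ins-29, at 58.9, and fipr-17/Y48A6B.3, at 58.6. The upstream limit admitted F48E8.8/paa-1 and W08A12.2/unc-132, at 996 and 993 bp, and left out his-46/B0035.21 at 1001 bp and xrep-4/cey-2 at 1010 bp. The downstream limit admitted F25E5.9/F25E5.16 at 189 bp and icl-1/srh-2 at 186 bp. It left out F46C5.9/rer-1 at 211 bp and a second, weaker interval at clsp-1/eef-2 at 214 bp. Repeated sequence was uncommon beneath the peaks: 8 windows (6.45%) held a 31-base word found elsewhere in the genome, against 5.12% at one-sided peaks and 33.7% near small RNA starts.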

How the data were processed

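The authors deposited interval lists for each replicate and for both pooled, 30000 intervals each, and a thresholded list of 501 peaks, in assembly ce11, per the labels' descriptions. The pooled list is labelled as peaks and background, the input to the threshold. As text deposited with the samples states, each list was made from alignments of the precipitated libraries and a control alignment, which was not analysed here. Aligner, peak caller, settings and signal scale: not given in the sources used here, for any list. The authors deposited a signal value, a −log10 q-value and a summit offset for each interval. The signal, of unstated scale, was used for ranking and as each replicate's value, without scaling between lists. The −log10 q-value ranked nothing. No read totals were found in these files. Depth is therefore unknown, and the binomial interval covers counting error only.

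Promoter windows came from Ensembl release 115 (WBcel235, the same sequence as ce11), with gene symbols from that annotation and what unnamed genes encode from RefSeq. A divergent pair was assigned from the nearest start on each strand. Replicate values were taken from the nearest summit within 200 bp. GC content and words were read in the summit base and 50 bp on either side, and repeats as 31-base words found more than once in the genome. Python 3.11.15, pandas 2.3.3, numpy 2.4.6 and scipy 1.17.1 were used, and the classification was tested on simulated summits. The peaks, gene lists and comparisons were chosen with earlier results of these data known, and no significance test was made. Genes named were those nearest to the 15 strongest peaks, up to 3 of highest signal in each list with at least 2 genes under a peak, the 4 largest and 4 smallest replicate ratios among the 100 strongest peaks, and the 2 on either side of each limit. Others, including remaining list members, the last thresholded pairs and those holding the words, were named after their values were seen. Alternatives were the number of intervals, the window, the small RNA exclusion, interval midpoints, transcript starts, the matching distance and each replicate alone.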

Additional observations from a re-analysis of the deposited data

How the results depend on the processing

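The number of divergent promoter peaks moved with the rule that defined them, while no result had a test whose call could change. With the 2500 strongest intervals there were 67 (2.68% of intervals), and with the 10000 strongest 218 (2.18%). A window of 500 bp upstream to 100 bp downstream gave 51 (1.02%), and one of 1500 bp upstream to 200 bp downstream gave 190 (3.80%). Without the exclusion at small RNA starts the share was 3.12%, and with all transcript starts 2.80%. From one replicate at a time the number was 97 to 109 and the share 1.94% to 2.18%. The list of replicate 2 alone gave 73 of the 124 peaks again (58.9%) and that of replicate 1 alone 66 (53.2%). Over the alternatives, the median distance to the nearer start ranged from 129 to 174 bp, summits between the starts from 69.1% to 86.3%, and median GC content from 44.6% to 48.5%. Summits matched in both replicates ranged from 50.8% to 92.2%, and this was not computed for single replicates. Counts in gene lists and on X under these alternatives were added after seeing the data: ribosomal genes ranged from 7 to 14, chromatin regulators from 3 to 8, Mediator from 1 to 3, chaperones from 3 to 6 and peaks on X from 0 to 6. Of all such secondary values, 34 moved by more than the replicate spread, the matched share's interval or 1.5 times (for counts), and 65 did not. No paired analysis was possible because there was a single group. Unknown depth limits any statement that a promoter without a listed peak was not bound.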
